A study of Rattus norvegicus with 15 samples.

Results

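Beta cell disallowed genes are genes that most tissues use but that the insulin-secreting beta cell keeps almost silent. The set described here is a chosen part of those outside lactate transport and hexokinase metabolism. Its members are Rest, Oat, Acot7, Igfbp4, Itih5, Lmo4, Nfib, Smad3, Zfp36l1 and Cd44. They were taken by symbol from the deposited count table, which held a row for 9 of the 10 members among its 28914 genes. Itih5 had no row under that symbol; the authors' deposited comparison table pairs row AABR07028488.1 with the human name ITIH5, so that row is described beside the members and is not counted with them. All 9 members, and that row, passed the filter on low counts that left 15199 genes for testing.

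The samples were islets of Langerhans of Lewis rats, described in the labels as 4-5 weeks old, with no word on whether that is the age at surgery or at sampling. Polyadenylated RNA of 15 libraries was sequenced 10 weeks after surgery, 1 library for each numbered rat. Of these, 10 rats had a 90% partial pancreatectomy (Px), which removes most of the pancreas, and 5 had a sham operation (Sham). All 15 titles, Px and Sham alike, also carry the mark Inc_YES, which the labels do not explain, and they name no genetic alteration for either group. The average blood glucose stated for each rat carries no unit in the labels. It was 416 to 464 in 3 rats (higher-glucose Px), 104 to 211 in 7 rats (lower-glucose Px) and 88 to 96 in the 5 Sham rats. Assigned reads numbered 22.29 to 33.42 M in higher-glucose Px, 19.11 to 31.64 M in lower-glucose Px and 12.21 to 18.43 M in Sham libraries, so every Px library was deeper than every Sham library. The rats carry separate numbers, and nothing further is said of how they were kept, so p-values measure the spread between these libraries.

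Disallowed genes are thought to be silenced because some of their products would interfere with glucose-coupled insulin secretion or with the mature state of the cell, and they differ widely in function. Some act on transcription (Rest, Lmo4, Nfib, Smad3), some on messenger RNA decay (Zfp36l1), some in metabolism (Oat, Acot7), and some encode secreted or surface proteins (Igfbp4, Itih5, Cd44). Whole islets also contain vessels, supporting fibroblasts and macrophages, and many disallowed genes are ordinarily expressed in those cells. In such bulk samples fewer cells of a type and less RNA per cell cannot be told apart, and likewise more cells of another type and more RNA per beta cell cannot be told apart.

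The count table places the genes as follows; the sources used here do not name its genome build, and each span runs over the whole gene with its exons and introns. Rest lies on chromosome 14 from 33134511 to 33164141, Zfp36l1 on chromosome 6 from 103308045 to 103313074, Cd44 on chromosome 3 from 92696313 to 92783658, and Smad3 on chromosome 8 from 68569530 to 68678349. Lmo4 lies on chromosome 2 from 250218641 to 250241673, Nfib on chromosome 5 from 100439082 to 100647727, Igfbp4 on chromosome 10 from 86950557 to 86962578, and Oat on chromosome 1 from 204562289 to 204582070. Acot7 lies on chromosome 5 from 169357517 to 169450219, and the row paired with ITIH5 on chromosome 17 from 72036588 to 72046381. No exon of these rows overlapped an exon of another gene whose first listed exon was on the same chromosome. Genes with their first listed exon on another chromosome were not compared.

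The promoter windows of the 3 members with the largest differences between Px and Sham are shown. Each window runs from 250 bases before the annotated start to 50 after it, on the gene's own strand, 5′ to 3′. They are RefSeq sequences of build GRCr8, a reference genome and not the genome of these Lewis rats. Capitals mark the letters of an AP-1 element (TGANTCA) or a GC box (GGGCGG) on either strand. All 10 members, Itih5 included, matched a RefSeq window by symbol, and Acot7 matched 2.
Rest: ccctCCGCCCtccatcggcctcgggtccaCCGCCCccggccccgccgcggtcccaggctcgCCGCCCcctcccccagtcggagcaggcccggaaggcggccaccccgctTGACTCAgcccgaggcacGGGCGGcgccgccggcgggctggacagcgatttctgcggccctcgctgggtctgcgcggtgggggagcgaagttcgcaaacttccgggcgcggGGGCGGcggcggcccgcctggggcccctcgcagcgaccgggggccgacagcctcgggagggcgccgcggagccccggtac
Zfp36l1: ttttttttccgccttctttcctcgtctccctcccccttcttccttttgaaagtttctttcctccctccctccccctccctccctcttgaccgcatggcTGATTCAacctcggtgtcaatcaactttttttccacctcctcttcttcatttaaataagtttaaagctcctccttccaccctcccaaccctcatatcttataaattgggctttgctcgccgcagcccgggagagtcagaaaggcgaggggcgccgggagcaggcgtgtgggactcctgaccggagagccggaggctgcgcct
Cd44: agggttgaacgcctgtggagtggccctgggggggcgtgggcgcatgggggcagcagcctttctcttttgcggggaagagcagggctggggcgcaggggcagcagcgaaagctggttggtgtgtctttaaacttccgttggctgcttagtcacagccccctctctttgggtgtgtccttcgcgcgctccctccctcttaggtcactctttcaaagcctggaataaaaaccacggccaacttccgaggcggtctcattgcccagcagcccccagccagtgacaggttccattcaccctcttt
The Rest window, at chr14:31233402-31233701 on the minus strand, held 1 AP-1 element and 5 GC boxes. The Zfp36l1 window, at chr6:104668641-104668940 on the minus strand, held 1 AP-1 element and no GC box. The Cd44 window, at chr3:109699375-109699674 on the minus strand, held neither set of letters. Over the 10 members, 3 had an AP-1 element in a window (Rest, Zfp36l1 and the downstream window of Acot7), beside 7.33% of all 33469 windows of the same length. A GC box was present for 7 of the 10 members, beside 33.1% of all windows, and a CRE core (TGACG, either strand) for 2 of the 10, beside 21.2%. The member windows had a median GC content of 61.0%, against 51.7% over all windows. A match is a description of the letters, not evidence of binding, and a window without one says only that the letters are absent there.

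All 9 members were higher in Px than in Sham islets, by 0.68 to 3.30 on the log2 scale (quasi-likelihood test of edgeR, p adjusted over all genes by Benjamini-Hochberg, threshold 0.05). Px islets differed from Sham islets at most genes: 34.5% of the 15199 genes tested were called higher and 30.2% lower, so a single higher call carries little weight here. With library totals alone as the scaling these shares were 17.5% and 52.3%, and with scaling on 8 endocrine granule genes they were 48.9% and 6.57%. The members' median log2 fold change was 1.79, beside 0.024 over all genes tested. Between 5.45% (Cd44) and 27.5% (Acot7) of all tested genes had a larger log2 fold change than the member named. The 10 Px libraries lay above the highest Sham library for 8 of the 9 members, with Acot7 the exception. The share of all genes with such a separation was not counted. Here and below, groups without overlap are therefore only a description of each gene. Values below are CPM, read counts divided by the TMM-scaled library size in M reads.

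**Figure D1:**
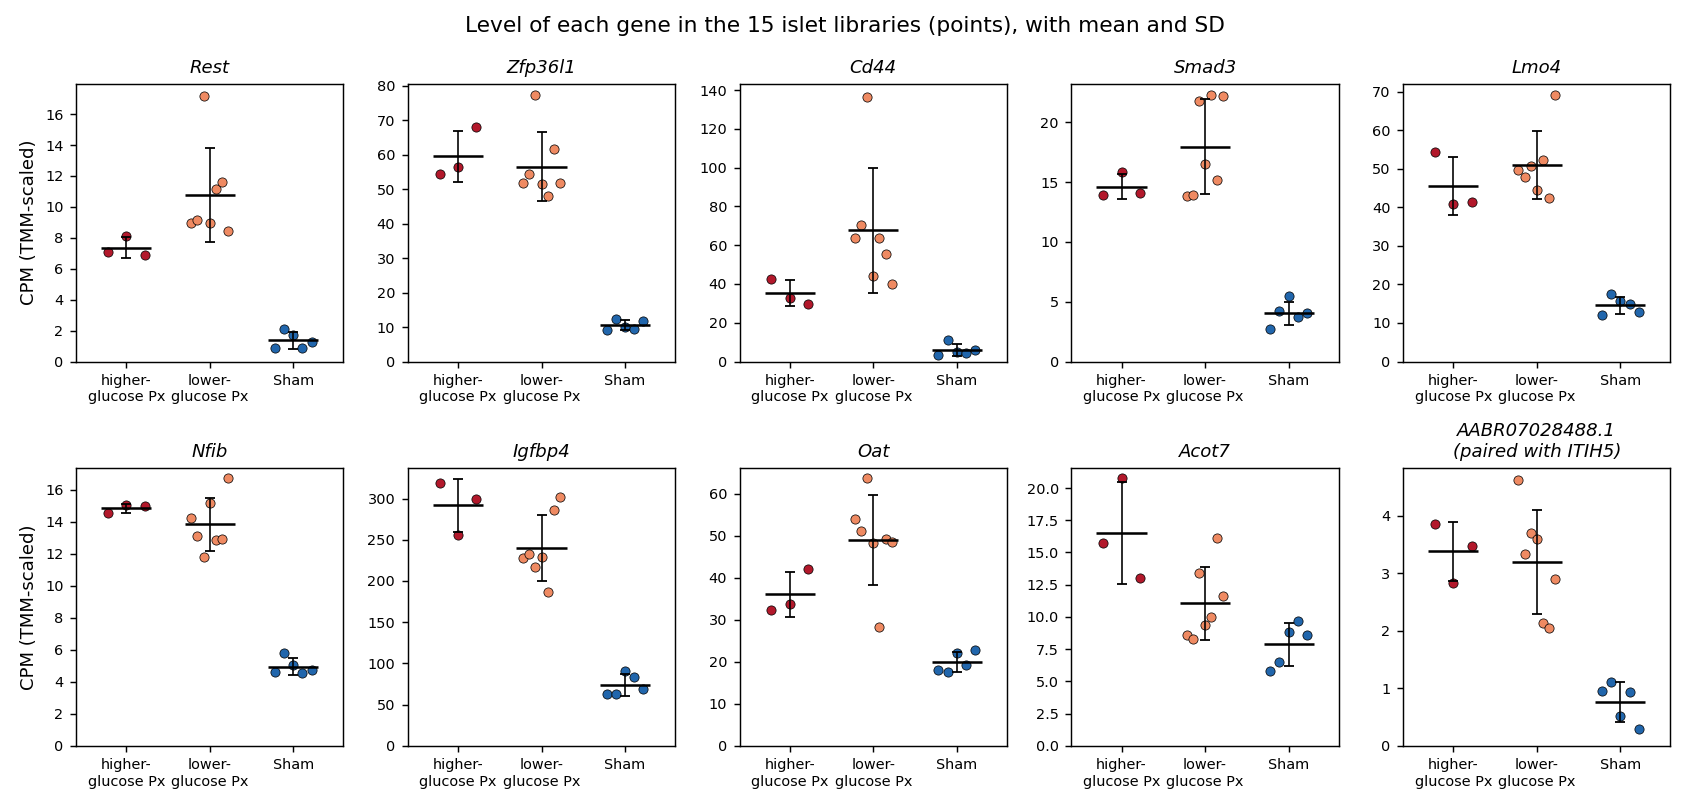
CPM (vertical axes, from 0) of the 9 members and the row paired with ITIH5 in each islet library, by group: higher-glucose Px (n = 3), lower-glucose Px (n = 7) and Sham (n = 5). Points are libraries, horizontal lines means and bars SD; in every panel but Acot7 all 10 Px points lie above all 5 Sham points, and 1 lower-glucose Px library stands above the rest for Rest (17.2 CPM) and Cd44 (137 CPM).

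Among the transcriptional regulators, Rest, the repressor that keeps neuronal genes silent outside the nervous system, showed the largest difference. It had 7.05, 8.14 and 6.87 CPM in higher-glucose Px, a lowest value of 8.44, a median of 9.18 and a highest of 17.2 CPM in lower-glucose Px, and 0.846, 2.12, 1.71, 0.889 and 1.26 CPM in Sham. Every Px library was above every Sham library, and all 3 higher-glucose libraries were below all 7 lower-glucose ones. The means were 9.76 ± 3.01 CPM in Px and 1.37 ± 0.547 CPM in Sham (SD, n = 10 and 5), a log2 fold change of 2.83 ± 0.27 (SE, adjusted p = 2.19e-07). Its counts were 121 to 497 reads per library in Px and 16 to 42 in Sham.

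Smad3, which carries the signal of transforming growth factor beta from the receptor to the nucleus, had 13.9, 15.8 and 14.1 CPM in higher-glucose Px. In lower-glucose Px its lowest, median and highest values were 13.8, 16.5 and 22.3 CPM, and in Sham it had 2.75, 4.20, 5.47, 3.69 and 4.07 CPM. The groups Px and Sham did not overlap, whereas the 2 Px groups did. Its log2 fold change in Px against Sham was 2.07 ± 0.18 (adjusted p = 1.10e-07). Lmo4, a LIM-only protein that bridges transcription factor complexes without binding DNA itself, averaged 49.3 ± 8.41 CPM in Px and 14.6 ± 2.18 CPM in Sham, a log2 fold change of 1.76 ± 0.13 (adjusted p = 2.46e-08). Its Px values ran from 41.0 to 69.2 CPM and its Sham values from 12.01 to 17.4 CPM, with no overlap. Nfib, a nuclear factor I transcription factor, had the narrowest spread between Px libraries of the 9 members. It ran from 11.8 to 16.7 CPM in Px, a coefficient of variation of 10.3%, and from 4.53 to 5.81 CPM in Sham, with a log2 fold change of 1.51 ± 0.10 (adjusted p = 1.22e-08).

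Zfp36l1, an RNA-binding protein that speeds the decay of messenger RNAs with AU-rich elements, had the smallest adjusted p of the members. It had 54.3, 56.3 and 68.0 CPM in higher-glucose Px, a lowest value of 47.9, a median of 51.9 and a highest of 77.2 CPM in lower-glucose Px, and 9.10, 12.3, 10.1, 9.51 and 11.8 CPM in Sham. The lowest Px library was thus far above the highest Sham library. The mean in Px was 5.43 times that in Sham, and the log2 fold change was 2.44 ± 0.13 (adjusted p = 2.44e-09).

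Of the secreted and surface proteins, Cd44, the hyaluronan receptor that leukocytes and mesenchymal cells carry, rose most in Px of all members. It had 42.6, 32.96 and 29.8 CPM in higher-glucose Px, a lowest value of 39.9, a median of 63.5 and a highest of 137 CPM in lower-glucose Px, and 3.33, 10.9, 4.94, 4.58 and 5.79 CPM in Sham. All Px libraries were above all Sham libraries, and Cd44 also varied most between Px libraries, with a coefficient of variation of 53.3%. Its log2 fold change was 3.30 ± 0.39 (adjusted p = 1.82e-06). Igfbp4, a secreted protein that binds insulin-like growth factors and limits their access to the receptor, averaged 256 ± 43.9 CPM in Px and 73.7 ± 12.8 CPM in Sham. Its Px libraries ran from 187 to 319 CPM and its Sham libraries from 62.4 to 90.8 CPM, without overlap, at a log2 fold change of 1.79 ± 0.14 (adjusted p = 4.35e-08).

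The row paired with ITIH5, a hyaluronan-binding heavy chain of the inter-alpha-trypsin inhibitor family, averaged 3.25 ± 0.785 CPM in Px and 0.762 ± 0.343 CPM in Sham. Its Px counts were 39 to 152 reads per library and its Sham counts 5 to 22, and the 2 groups did not overlap in CPM. The log2 fold change was 2.08 ± 0.28 (adjusted p = 8.19e-06).

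The 2 metabolic members differed least. Oat, the mitochondrial aminotransferase that links ornithine with glutamate and proline, had 32.2, 33.8 and 42.1 CPM in higher-glucose Px, a lowest value of 28.2, a median of 49.2 and a highest of 63.8 CPM in lower-glucose Px, and 18.0, 17.5, 22.1, 19.2 and 22.8 CPM in Sham. Px and Sham did not overlap, and 6 of the 7 lower-glucose libraries were above all 3 higher-glucose libraries. Its log2 fold change was 1.18 ± 0.17 (adjusted p = 1.47e-05). Acot7, a cytosolic enzyme that cleaves long-chain acyl-CoA, had 15.7, 20.8 and 12.99 CPM in higher-glucose Px, a lowest value of 8.30, a median of 9.95 and a highest of 16.1 CPM in lower-glucose Px, and 5.82, 6.47, 8.84, 9.69 and 8.60 CPM in Sham. Only 7 of the 10 Px libraries, including all 3 higher-glucose ones, were above the highest Sham library, and the log2 fold change was 0.68 ± 0.21 (adjusted p = 0.00992). With libraries scaled by their totals alone, Acot7 had a log2 fold change of -0.014 and Oat one of 0.60 (adjusted p = 0.0714), so neither was called; that scaling lowered the median of all genes by 0.64, and the other 7 members were still called higher.

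Levels of different genes were compared per exon length, as RPKM computed from the deposited counts and exon lengths. In Px, Igfbp4 stood far above the others at 118 ± 20.2 RPKM. Lmo4 (22.1 ± 3.77), Zfp36l1 (21.1 ± 3.30) and Oat (21.01 ± 5.13) followed and did not differ beyond their spread, and Cd44 at 14.6 ± 7.78 RPKM also overlapped them. Acot7 (7.33 ± 2.31), Nfib (5.22 ± 0.540) and Smad3 (3.37 ± 0.724) came next, and Rest was lowest of the 9 members at 2.30 ± 0.7101 RPKM. In Sham the order differed: Igfbp4 was highest at 33.9 ± 5.89 RPKM and Oat second at 9.28 ± 1.12, while Cd44 (1.49 ± 0.733), Smad3 (0.801 ± 0.195) and Rest (0.322 ± 0.129) were lowest. Rest was therefore the member with the lowest level in both conditions.

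Each Px group was also set against the same 5 Sham libraries. In higher-glucose Px all 9 members were called higher, where 32.4% of all genes were (26% lower), and in lower-glucose Px all 9 were called higher, where 33.4% of all genes were (30.4% lower). With library totals as the scaling, 6 members were called higher in higher-glucose Px, where Oat (-0.12, adjusted p = 0.735), Acot7 (0.060, adjusted p = 0.843) and Nfib (0.57, adjusted p = 0.0579) were not called, and 8 in lower-glucose Px. The 2 comparisons share their Sham libraries, so their values are given side by side and are no independent support for each other. Rest had a log2 fold change of 2.42 ± 0.28 in higher-glucose and 2.98 ± 0.25 in lower-glucose Px, and Cd44 one of 2.57 ± 0.37 in higher-glucose and 3.52 ± 0.34 in lower-glucose Px. Zfp36l1 differed little between them, with 2.49 ± 0.15 in higher-glucose and 2.42 ± 0.13 in lower-glucose Px, as did Nfib, with 1.58 ± 0.13 in higher-glucose and 1.48 ± 0.11 in lower-glucose Px. Acot7 ran the other way from Rest, with 1.07 ± 0.23 in higher-glucose and 0.48 ± 0.19 in lower-glucose Px (adjusted p = 0.0348). The lower-glucose call of Acot7 was lost when any 1 of lower-glucose replicates 8, 14 or 16 or of Sham replicates 23 or 24 was left out (adjusted p up to 0.0952) and with limma voom (adjusted p = 0.0593), and with library totals the value was -0.047 (adjusted p = 0.854).

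**Figure D2:**
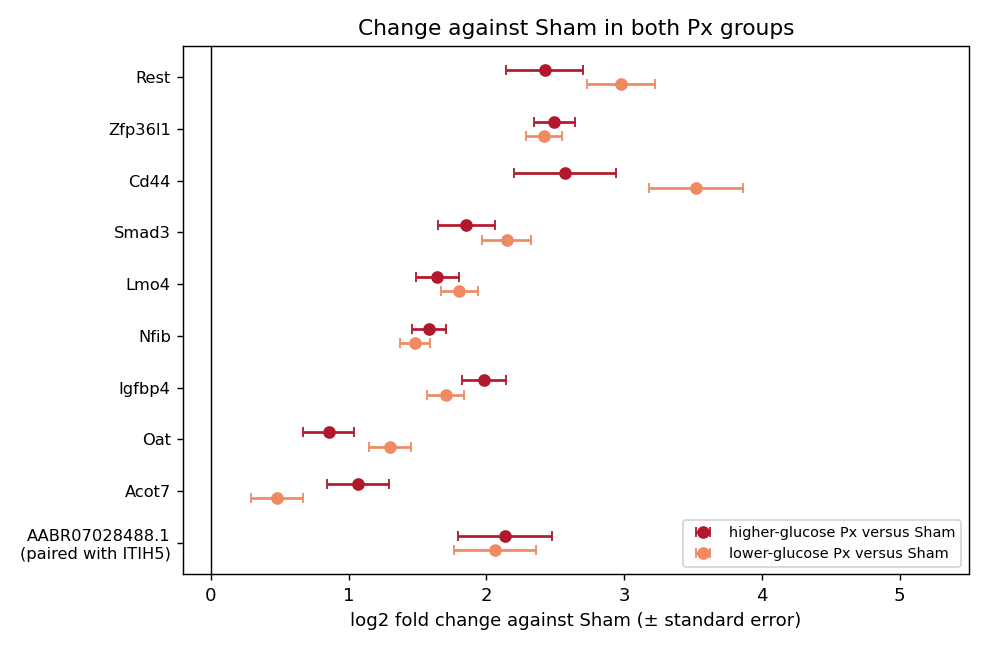
Log2 fold change against Sham (horizontal axis, bars ± standard error) of each member and of the row paired with ITIH5, in higher-glucose Px (upper point of each pair) and lower-glucose Px (lower point), from one edgeR fit of 3 groups. All points lie above 0, from 0.48 for Acot7 to 3.52 for Cd44, both in lower-glucose Px.

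The direct comparison of higher-glucose with lower-glucose Px, which uses no Sham library as its reference, called 0 of the 9 members, where 3.32% of all genes were called higher and 1.65% lower. At an unadjusted p under 0.05 there were 4 members, beside 3499 of the 15199 genes tested. DESeq2 and limma voom also called 0 members. Scaling on the endocrine granule genes instead called 5 members lower in higher-glucose Px (Rest, Oat, Lmo4, Smad3 and Cd44), among them Cd44 at -1.43, Rest at -1.002 and Oat at -0.91, but it called 30% of all genes lower too and moved the median of all genes by -0.43. The log2 difference, higher-glucose minus lower-glucose, was -0.95 ± 0.36 for Cd44 (adjusted p = 0.129), -0.55 ± 0.25 for Rest (adjusted p = 0.208), -0.44 ± 0.18 for Oat (adjusted p = 0.156) and 0.58 ± 0.21 for Acot7 (adjusted p = 0.118). These 4 did not pass, which does not show that the groups were alike. Leaving out a single library changed 2 of the calls: without lower-glucose replicate 11 Oat was called lower (-0.54, adjusted p = 0.0210), and without lower-glucose replicate 14 Acot7 was called higher (0.70, adjusted p = 0.0449). Igfbp4, Lmo4, Nfib, Smad3 and Zfp36l1 differed by between -0.29 and 0.28, with adjusted p of 0.274 or more. Within the 7 lower-glucose rats, whose glucose spanned 104 to 211, no member and no gene (0%) followed log2 glucose after adjustment in edgeR, DESeq2 and limma voom also called 0 members, and in edgeR 1422 genes had an unadjusted p under 0.05. One of these was Igfbp4, at -0.67 ± 0.18 log2 units per doubling of glucose (adjusted p = 0.380).

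Markers of other islet cell types moved with the surgery as well. A score for each cell type was the mean log2 CPM of its markers in a library. The myeloid score was 5.401 ± 0.50 in Px and 1.49 ± 0.39 in Sham, and the stromal score was 7.26 ± 0.53 in Px and 3.86 ± 0.47 in Sham (SD, n = 10 and 5). All 15 myeloid markers in the table, among them Csf1r and Cd68, and all 16 stromal markers, among them Col1a1 and Pdgfrb, were called higher in Px, with median log2 fold changes of 3.90 and 3.62. Their summed levels were 828 to 4193 CPM in Px and 36.7 to 79.4 CPM in Sham for the myeloid list, and 2233 to 9317 CPM in Px and 386 to 802 CPM in Sham for the stromal list. No marker of either list was at 0 in every Sham library. The acinar list, markers of the digestive enzyme cells around islets, summed to 123687 to 570321 CPM in Px and 5259.6 to 91179 CPM in Sham. The beta cell score was 9.17 ± 0.19 in Px and 10.3 ± 0.23 in Sham, so beta cell markers were high in every library and lower in Px. For all 4 scores the 2 groups were completely separated, with an exact permutation p of 0.000333, the smallest that the test allows. The part of these cell types in the members' differences between Px and Sham cannot be told apart from the surgery itself.

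Adding a score to the comparison of Px with Sham shows how closely the scores and the surgery run together. With the myeloid score as a further term, 0 of the 9 members were called by edgeR and 4 had an unadjusted p under 0.05 (Igfbp4, Lmo4, Nfib and Zfp36l1, each higher in Px), but 0% of all genes were called higher either, and the score and the grouping correlated at r = 0.97 over the 15 libraries. The share of all genes under that unadjusted p was not counted in this fit. With the stromal score (r = 0.96), Igfbp4, Lmo4, Nfib and Zfp36l1 were called higher, at log2 fold changes of 2.39 ± 0.43, 1.55 ± 0.41, 1.52 ± 0.34 and 2.04 ± 0.37, where 6.23% of all genes were. Cd44 had 0.55 ± 0.82 and Oat -0.34 ± 0.45 in that fit, and neither was called. With the acinar score (r = 0.87), 8 members were called higher, where 22.8% of all genes were. The exception was Acot7, at -0.10 ± 0.38.

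Within the 10 Px libraries the scores vary without the surgery. There each member's slope on a score was fitted, and differences between the members' slopes were not tested. Per unit of myeloid score, which is a doubling of the average marker level, Rest rose by 0.63 ± 0.14 log2 units (adjusted p = 0.0247) and was the only one of the 9 members called, where 4.16% of all genes were called higher and 0.184% lower. Cd44 had the steepest slope, 0.90 ± 0.23, which missed the threshold (adjusted p = 0.0528). Oat had 0.42 ± 0.17 (adjusted p = 0.260) and Zfp36l1 0.28 ± 0.11 (adjusted p = 0.214). Fits without 1 library gave 0.35 to 0.48 for Oat and 0.090 to 0.37 for Zfp36l1. Igfbp4 (-0.065 ± 0.17), Lmo4 (0.033 ± 0.15) and Nfib (-0.18 ± 0.11) had slopes near 0 or below. The call of Rest and the size of the Rest and Cd44 slopes rested on lower-glucose replicate 8. Its myeloid score was 6.60, against 5.01 to 5.94 in the other 9 Px libraries, and its Rest, Cd44, Zfp36l1 and Oat levels were the highest of all libraries. Without it the slope was 0.44 for Rest (adjusted p = 0.871) and 0.32 for Cd44 (adjusted p = 0.957), and 0 members were called. Cd44 was called beside Rest with DESeq2 (0.88, adjusted p = 0.0236) and without lower-glucose replicate 4, 11 or 14 (adjusted p of 0.0263, 0.0285 and 0.0458). With library totals 5 members were called, where 36.9% of all genes were called higher, and with endocrine scaling 6, where 49.1% were. Without higher-glucose replicate 19 Rest had 0.59 (adjusted p = 0.0533) and Zfp36l1 was called instead (0.37, adjusted p = 0.0314). With the stromal score added and all 10 libraries kept, Rest had 0.57 (adjusted p = 0.0876). Lymphocyte markers moved with the same library, whose lymphocyte score of 2.45 was the highest, and their part was not tested.

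Per unit of stromal score, Oat rose by 0.59 ± 0.12 log2 units (adjusted p = 0.0179), the only one of the 9 members called, where 3.04% of all genes were called higher and 3.11% lower. Cd44 had 0.72 ± 0.29 (adjusted p = 0.160), Rest 0.41 ± 0.21 (adjusted p = 0.236) and Acot7 -0.46 ± 0.22 (adjusted p = 0.217). The slopes of Lmo4, Nfib, Smad3 and Zfp36l1 lay between -0.068 and 0.071. The stromal score was itself lower in higher-glucose than in lower-glucose Px, by 0.84 (exact permutation p = 0.025). It was inversely related to the acinar score (r = -0.73 over the 10 Px libraries, which share their library scaling). With the glucose group as a term, Oat had a slope of 0.73 (adjusted p = 0.224), with the acinar score 0.64 (adjusted p = 0.272), without lower-glucose replicate 2 it had 0.62 (adjusted p = 0.0524), and without higher-glucose replicate 13 it had 0.70 (adjusted p = 0.0717). The slope stayed positive in each of these fits. With library totals 8 members were called, where 79.4% of all genes were called higher, and with endocrine scaling 7, where 56.6% were, so the count depends on the scaling.

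**Figure D3:**
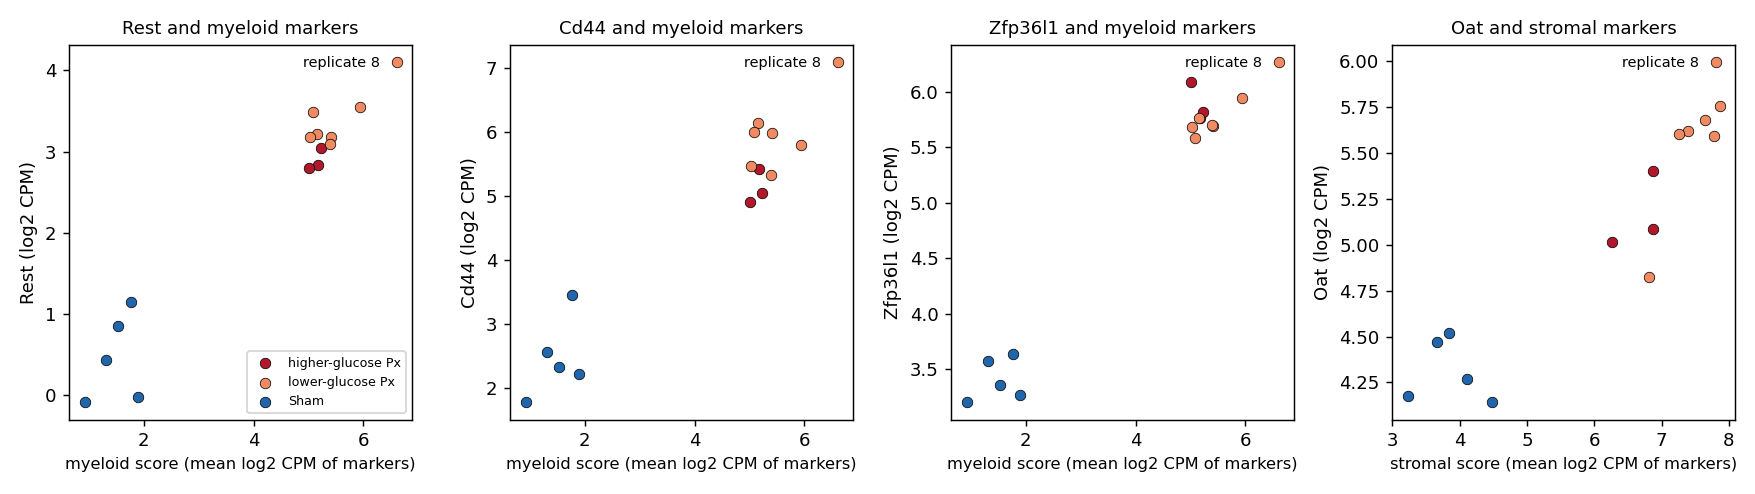
Log2 CPM (vertical axes) of Rest, Cd44 and Zfp36l1 against the myeloid score, and of Oat against the stromal score (horizontal axes, mean log2 CPM of the markers), 1 point for each library, coloured by higher-glucose Px, lower-glucose Px and Sham. Px and Sham form separate clusters in every panel, and lower-glucose replicate 8, at a myeloid score of 6.60, has the highest level of all 4 genes.

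Likeness between genes was measured as Pearson's r of log2 CPM deviations from the group means over the 15 libraries, which share library depth and scaling, and is a description only. Among the members, Rest and Cd44 were most alike (r = 0.81), followed by Rest with Zfp36l1 (0.70) and Zfp36l1 with Cd44 (0.69). Lower-glucose replicate 8 had the highest level of these 3 genes (17.2 CPM for Rest, 137 for Cd44 and 77.2 for Zfp36l1). No r was computed without that library, so the values of these genes may rest on it. The lowest r between members was that of Igfbp4 with Cd44 (-0.34). Out of 9665 other genes, the 3 most like Rest were Lcp1 (0.89), Tlr7 (0.88) and Capg (0.88), and those most like Cd44 were Bmf (0.93), Zswim6 (0.90) and Apaf1 (0.87). Zfp36l1 was closest to Ino80c (0.89), Wipf1 (0.88) and Nap1l1 (0.87), and Smad3 to Camk1d (0.84), Fam167a (0.80) and Arrb1 (0.80). Lmo4 was closest to Ash2l (0.88), St14 (0.86) and Mob2 (0.82), and Nfib to Socs6 (0.82), Perp (0.82) and C5 (0.82). Oat went with Abhd5 (0.94), Leprot (0.91) and Hspb8 (0.91), Acot7 with Zdhhc7 (0.96), Ddx54 (0.95) and Sh3tc1 (0.95), Igfbp4 with Oxa1l (0.90), Akr1b1 (0.90) and Ptges2 (0.89), and the row paired with ITIH5 with Ypel3 (0.95), Fam173a (0.88) and Rapgef3 (0.87). No 2 members had the same 3 closest genes.

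Genes that work with the members did not move as one. The list counts here and below stand beside 34.5% of all genes tested called higher and 30.2% called lower. With library totals these shares were 17.5% and 52.3%, and with endocrine scaling 48.9% and 6.57%. Of the REST partners, the corepressors and deacetylases it recruits, 0 of the 6 tested were called higher and 4 lower. Sin3a was lower by a log2 fold change of -0.57 ± 0.07 (38.7 ± 2.49 CPM in Px, 57.4 ± 5.09 CPM in Sham; -0.12 and not called when scaled on the 8 endocrine granule genes) and Hdac2 by one of -0.38 ± 0.07, which was 0.050 under that scaling. Of 19 neuronal and secretory genes listed here as targets of REST, 15 were called lower and 1 higher, with a median of -0.66 beside 0.024 over all genes. Cplx2, a complexin of regulated exocytosis, averaged 43.0 ± 10.1 CPM in Px and 231 ± 40.1 CPM in Sham (-2.42 ± 0.15), and Gjd2, the beta cell gap junction protein connexin 36, averaged 52.6 ± 6.27 CPM in Px and 105 ± 10.9 CPM in Sham (-0.99 ± 0.09). The 1 higher gene, Vgf, had a log2 fold change of 1.29 ± 0.47 (adjusted p = 0.0225), and its call was lost with library totals (0.55, adjusted p = 0.239) and with limma voom (1.22, adjusted p = 0.0528). It was also lost without Sham replicate 24 or 27 or without the 3 higher-glucose libraries (adjusted p up to 0.115), the last a choice made after seeing the data. Beta cell markers were lower in Px too, with 8 of 9 called, and their part in the list's count was not tested. With library totals 17 of the 19 were called lower and 0 higher. Under the endocrine scaling, which raised the median of all genes by 0.44, 7 of the 19 were called lower and 3 higher, and of the REST partners 0 were lower and 1 higher. The listed REST targets Chga and Scg2 are themselves among the 8 genes used for that scaling.

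Around Smad3, 6 of 14 other genes of transforming growth factor beta signalling were called higher and 3 lower, beside 34.5% and 30.2% of all genes. The counts were 4 higher and 4 lower with library totals and 9 higher and 1 lower with endocrine scaling. The ligand Tgfb3 was higher by 2.26 ± 0.17 and the receptor Tgfbr2 by 1.60 ± 0.14, whereas the ligand Tgfb2 was lower, at -0.88 ± 0.10, as was the bone morphogenetic protein effector Smad5, at -0.56 ± 0.09 (-0.13, adjusted p = 0.500, with endocrine scaling). Of 6 LIM-only proteins and partners of Lmo4, Lmo2 (1.82 ± 0.19) and the LIM-binding protein gene Ldb2 (2.10 ± 0.27) were among 3 called higher, and the islet transcription factor gene Isl1 (-1.10 ± 0.08) and Lmo3 (-1.99 ± 0.24) among 3 called lower; with library totals 2 were higher and 3 lower, and with endocrine scaling 3 higher and 2 lower. Nfia, the relative of Nfib, was higher by 1.59 ± 0.13, and Nfic was lower (-0.55 ± 0.18), a call that was lost without Sham replicate 26 or 27 and with endocrine scaling (-0.065, adjusted p = 0.797). In the family of Zfp36l1 both relatives were called higher, Zfp36 by 1.61 ± 0.21 and Zfp36l2 by 0.63 ± 0.16, but with library totals Zfp36l2 had 0.028 (adjusted p = 0.930) and was not called.

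Of 11 tested genes of hyaluronan binding and the inter-alpha-trypsin family, 10 were called higher (8 with library totals), with a median of 3.70. Itih3 averaged 8.36 ± 3.60 CPM in Px and 0.743 ± 0.272 CPM in Sham (3.48 ± 0.35), and Spp1, the secreted CD44 ligand osteopontin, averaged 163 ± 69.3 CPM in Px and 6.65 ± 5.82 CPM in Sham (4.62 ± 0.53). Of 6 genes whose products splice or bind CD44, 3 were called higher, among them the membrane-cytoskeleton linker Msn (1.73 ± 0.20) and the invariant chain Cd74 (3.86 ± 0.44), and the epithelial splicing factor Esrp1 was the 1 called lower (-0.27 ± 0.09, but 0.16 under the endocrine scaling). Of these 6 genes, 2 were called higher and 2 lower with library totals, and 5 higher and 0 lower with endocrine scaling. Myeloid and stromal markers moved with these genes. With the stromal score as a further term in Px against Sham, Itih3 had 2.21, Spp1 0.25, Msn -0.019 and Cd74 0.83. With the myeloid score they had 3.95, 1.59, -0.44 and -1.03. None of these was called in edgeR, where 6.23% of all genes were called higher with the stromal score and 0% with the myeloid score. Both scores ran closely with the grouping (r = 0.96 and 0.97), so their part and the surgery cannot be told apart. Within Px, Cd74 rose with the myeloid score, at a slope of 1.32 ± 0.19 (adjusted p = 0.00280 in edgeR), where 4.16% of all genes were called higher. No value of this slope without lower-glucose replicate 8, which had the highest myeloid score, or with another scaling is given here.

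Of 12 genes of the insulin-like growth factor axis around Igfbp4, 7 were called higher and 2 lower, with 5 and 3 under library totals and 9 and 1 under endocrine scaling. The growth factor Igf1 averaged 35.7 ± 6.43 CPM in Px and 3.12 ± 1.44 CPM in Sham (3.51 ± 0.24), and the binding protein Igfbp5 was higher by 2.85 ± 0.22. The receptor Igf1r was lower, at 28.1 ± 4.41 CPM in Px and 70.0 ± 10.99 CPM in Sham (-1.32 ± 0.11), and so was Igf2 (-0.61 ± 0.11), which was not called with endocrine scaling (-0.17, adjusted p = 0.229). Around Oat, 2 of 7 genes of ornithine and proline metabolism were higher, the ornithine decarboxylase gene Odc1 (0.96 ± 0.22) and the mitochondrial arginase gene Arg2 (2.83 ± 0.66). With library totals 1 of the 7 was higher and 4 were lower, Odc1 then having 0.23 (adjusted p = 0.188), and with endocrine scaling 4 were higher and 0 lower. With the acinar score as a further term Odc1 had -0.23 and Arg2 -0.76 (adjusted p = 0.537 and 0.0653). The glutamine synthetase gene Glul was lower (-0.33 ± 0.13, but 0.14 under the endocrine scaling), and its call was lost without any 1 of Sham replicates 25, 26 or 27. Odc1 and Arg2 fell as the stromal score rose within Px (-0.73 ± 0.15 and -1.34 ± 0.32 per unit), where Oat rose. On that slope 3 of the 7 genes were called lower, beside 3.11% of all genes. The stromal score ran against the acinar score within Px (r = -0.73). For these slopes no other scaling, no fit with the acinar score or glucose group and none without 1 library is given here, and the part of acinar cells was not tested. Of 5 tested relatives of Acot7, Acot9 (0.97 ± 0.10) and Acot13 (0.59 ± 0.18, but -0.022 under scaling by library totals) were higher; with library totals 0 of the 5 were called higher and 3 lower. The further disallowed genes, among them Tgm2 (2.89 ± 0.19) and the hexokinase gene Hk1 (2.18 ± 0.15), were called higher in 16 of 16 cases (15 with library totals) with a median of 2.87, against 1.79 for the 9 members; the difference between the lists was not tested.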

How the data were processed

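RNA of isolated islets from 10 Px and 5 Sham rats was measured. Raw read counts per gene were deposited, and the layout is that of featureCounts per the file headers. FastQC, Subread, featureCounts and limma are named by the submitters' processing notes; for versions, genome build, annotation and strand setting, the sources used here say nothing. The deposited comparison table holds log2 fold changes, p-values and adjusted p-values, and fold changes as a linear ratio, per the file headers; it was used only to pair AABR07028488.1 with ITIH5. The count table has 25 symbols in the form of dates and no 2 identical libraries.

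Low counts were removed by filterByExpr with a minimum count of 10 and a minimum total of 15, libraries were scaled by TMM, and two-sided quasi-likelihood tests run in edgeR 4.0.16 (R 4.3.3) with Benjamini-Hochberg adjustment over all 15199 genes at 0.05. Px was set against Sham in a model of 2 groups and the Px groups were contrasted in one of 3 (boundary at a glucose of 300), and slopes were fitted on log2 glucose or a marker score. Log2 CPM used a prior count of 2. Single scores were compared by exact permutation over all splits. Alternatives were RLE factors, library totals, endocrine granule gene scaling, no filter, DESeq2 1.42.0, limma 3.58.1 (voom), score covariates and leaving out each library. Fits were tested on simulated counts. Library totals of 12.21 to 33.42 M reads set the depth.

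The members, gene lists and marker lists were chosen with earlier results of these data known. Named beside the members were, of each list, up to 2 genes called higher and 2 called lower by smallest p, and for each member the 3 genes with the highest r among those with a mean of at least 5 CPM. Csf1r, Cd68, Col1a1 and Pdgfrb were named as markers, and the slopes of Cd74, Odc1 and Arg2 were chosen after their values were seen. The lymphocyte, duct, endothelial and Schwann and neural scores were also higher in Px than in Sham, by 2.17, 1.80, 0.83 and 1.18 (exact permutation p = 0.000333 each, the smallest possible). Listed genes without a row or below the filter were not tested. Promoter windows are RefSeq sequences of GRCr8, searched on both strands, and matches of one motif may overlap.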

Additional observations from a re-analysis of the deposited data

Results flagged for a closer look

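Of 30 groups of 5 to 10 libraries tested for a library far from the others (the 9 members and the row paired with ITIH5, each in lower-glucose Px, all Px and Sham), 6 had one, and chance alone flags about 1 in 20 such groups. The lower-glucose libraries are part of all Px, so these groups are not separate tests. The 6 are 3 gene values in 2 libraries, each of which stands apart both within lower-glucose Px and within all Px. Rest reached 17.2 CPM in lower-glucose replicate 8, where the next highest Px library had 11.6 CPM. Cd44 reached 137 CPM in the same library, where the next highest had 70.6 CPM. That library also had the highest myeloid score, 6.60, and the highest lymphocyte score, 2.45, and the part of those cells was not tested. Lmo4 reached 69.2 CPM in lower-glucose replicate 16, where the next highest Px library had 54.3 CPM.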

How the results depend on the processing

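Under all alternatives together, 1675 of 1834 recomputed values were scored as kept. For a gene this meant the same direction and the same side of the threshold, and for a count of members a change within a set ratio. With library totals, the falls from 9 to 7 members in Px against Sham and from 9 to 6 in higher-glucose Px were thus scored as kept. Most of the recomputed values came from fits without 1 library, which change little. The 9 higher calls in Px against Sham held with RLE factors, endocrine scaling, no filter, DESeq2, voom and without any 1 library, and the count was 7 with library totals, 0 with the myeloid and 4 with the stromal score as a covariate, and 8 with the acinar score. Among all genes, library totals gave 11.9% higher and 59.4% lower calls in higher-glucose Px and 19.3% and 46.6% in lower-glucose Px, and endocrine scaling 33% and 14.9% in higher-glucose Px and 57.9% and 5.65% in lower-glucose Px. For higher-glucose against lower-glucose Px, endocrine scaling called 5 members lower (Rest, Oat, Lmo4, Smad3 and Cd44), where it called 30% of all genes lower and moved their median by -0.43; leaving out 1 library gave 0 to 1 higher and 0 to 1 lower. The myeloid slope called 5 members with library totals, 6 with endocrine scaling, 2 with DESeq2, 2 with the acinar and 0 with the stromal score as a term, and 0 to 2 without 1 library. The stromal slope called 8 with library totals, 7 with endocrine scaling, 0 with the glucose group, 0 with the acinar score, and 0 to 1 without 1 library. Library totals called 36.9% of all genes higher on the myeloid slope and 79.4% on the stromal slope, and endocrine scaling 49.1% and 56.6%. Shares of all genes with DESeq2, voom, no filter, a further term in a slope or without 1 library are not given here, so those counts have no background beside them.

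Values that changed sign were, with library totals, -0.014 for Acot7, -0.022 for Acot13, -0.12 for Oat in higher-glucose Px, -0.047 for Acot7 in lower-glucose Px and 0.082 for the glucose slope of Igfbp4; with endocrine scaling, 0.050 for Hdac2, 0.14 for Glul and 0.16 for Esrp1. With the myeloid covariate they were -0.16 for Oat, -0.24 for Acot7, -0.37 for Cd44, 0.073 for Smad5, -1.12 for Zfp36l2, -0.44 for Msn, -1.03 for Cd74 and 0.29 for Esrp1. With the stromal covariate they were -0.34 for Oat, -0.29 for Zfp36l2, -0.019 for Msn and 0.20 for Esrp1, and with the acinar covariate -0.10 for Acot7, -0.23 for Odc1 and -0.76 for Arg2. The cause was not tested. The fits without the higher-glucose libraries and those with a further score in a slope were chosen after seeing the data. No paired analysis was possible because Px and Sham rats carry different numbers.

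Depth limits the row paired with ITIH5 and Rest most, with 5 and 16 reads in their lowest Sham library.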
